A study of Mus musculus with 7 samples.

Results

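The comparison of Agbl5 knockout mouse eye samples with all control samples covered 15472 of the 54532 genes in the deposited expression table, and it used all 7 libraries of the series. Of these, 3 libraries were labelled knockout and 4 served as controls, 2 of them heterozygous and 2 wildtype for Agbl5. Genes were kept where the mean over the 7 libraries was at least 1 FPKM, that is, fragments per kilobase of gene, scaled to the depth of the library. The tissue label read eyeball, whereas the extraction protocol spoke of retina. Allele, strain, age, sex and whether the replicates were separate animals were not given in the sources used here, so the p-values measure the spread between these samples, which may be technical.

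Agbl5 encodes CCP5, a carboxypeptidase that takes the branching glutamate off polyglutamylated tubulin. Enzymes of the TTLL family add the glutamates, and CCP1, encoded by Agtpbp1, shortens the long chains. Polyglutamylated microtubules are abundant in the connecting cilium of rods and cones, through which proteins travel to the light-sensing outer segment. In a stressed retina, Mueller glia and photoreceptors are known to exchange secreted signals such as endothelin 2, fibroblast growth factor 2 and cytokines that act through the gp130 receptor and STAT3.

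Recovered read totals lay between 12244707 and 14339701 per library, so that 1 read on a transcript of 1 kb stood for 0.0663 to 0.0766 FPKM. Markers of retina were abundant in every library, with Opn1sw between 135 and 149 FPKM and Rlbp1 between 106 and 119 FPKM, while Krt12 of the cornea stayed at or below 0.701 FPKM. Knockout 1 and heterozygous 1 also held lens RNA, with Cryaa at 2541 and 1733 FPKM against 1.11 to 12.3 FPKM in the other 5 libraries. Knockout 3 and wildtype 2 held Xist at 158 and 181 FPKM, and the other 5 libraries stood at or below 0.0381 FPKM. The first principal component, with 35.3% of the variance, separated the lens-rich libraries, and the second, with 20.5%, separated the 3 knockouts from the 4 controls.

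Agbl5 itself was lowest in the knockout libraries. It stood at 1.53, 1.73 and 1.26 FPKM in knockout 1 to 3, at 4.21 and 5.34 FPKM in heterozygous 1 and 2, and at 9.89 and 8.56 FPKM in wildtype 1 and 2. The 3 genotypes did not overlap, and the heterozygous libraries lay between the others. Against all controls the log2 change was -1.61 ± 0.25 (SE; limma, adjusted p = 0.0429). Pooling a graded control group widened the spread of the controls, to 7 ± 2.67 FPKM (SD, n = 4), and the call held in 9 of 23 alternative settings, with log2 changes from -2.15 to -1.20 and adjusted p up to 0.375. Of the fits that left out 1 library, 1 of 7 kept it, the fit without heterozygous 1. Exons of Ost4 overlap Agbl5, and the library kit did not mark the strand, so reads in the shared exons could not be assigned to either gene. Where in Agbl5 the reads that remained in the knockouts lie was not tested.

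Across the tested genes the knockout differed from controls at 95, or 0.614% of the genes, by limma with Benjamini-Hochberg adjustment at 0.05. The called genes comprised 72 that rose (0.465% of tested genes) and 23 that fell (0.149%). Counts of called list members below are to be read against these shares. Knockout and control libraries did not overlap for any of the 95, against 13% of all tested genes (6.26% lower in knockouts without overlap). An unadjusted p under 0.05 was reached by 1891 genes, 12.2% of those tested, the share against which the counts at that level below are to be read. The typical gene hardly moved: the median log2 change was 0.00, 80.2% of tested genes lay within 0.2 of 0, and the median half-width of the 95% interval was 0.217. Changes were taken on log2(FPKM + 1), which understates the fold of genes at low levels. The median ratio of mean FPKM was 2.04 among genes that rose and 0.655 among genes that fell, and 39 of the 72 reached a 2-fold rise. Protein-coding genes made up 55 of the 72 rises and 10 of the 23 falls, while they were 79.6% of the tested genes. The summed level of the 95 genes was 1886 FPKM in knockouts and 1383 FPKM in controls on average. In whole tissue, a change in the number of cells of a type and a change of RNA per cell cannot be told apart.

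**Figure D1:**
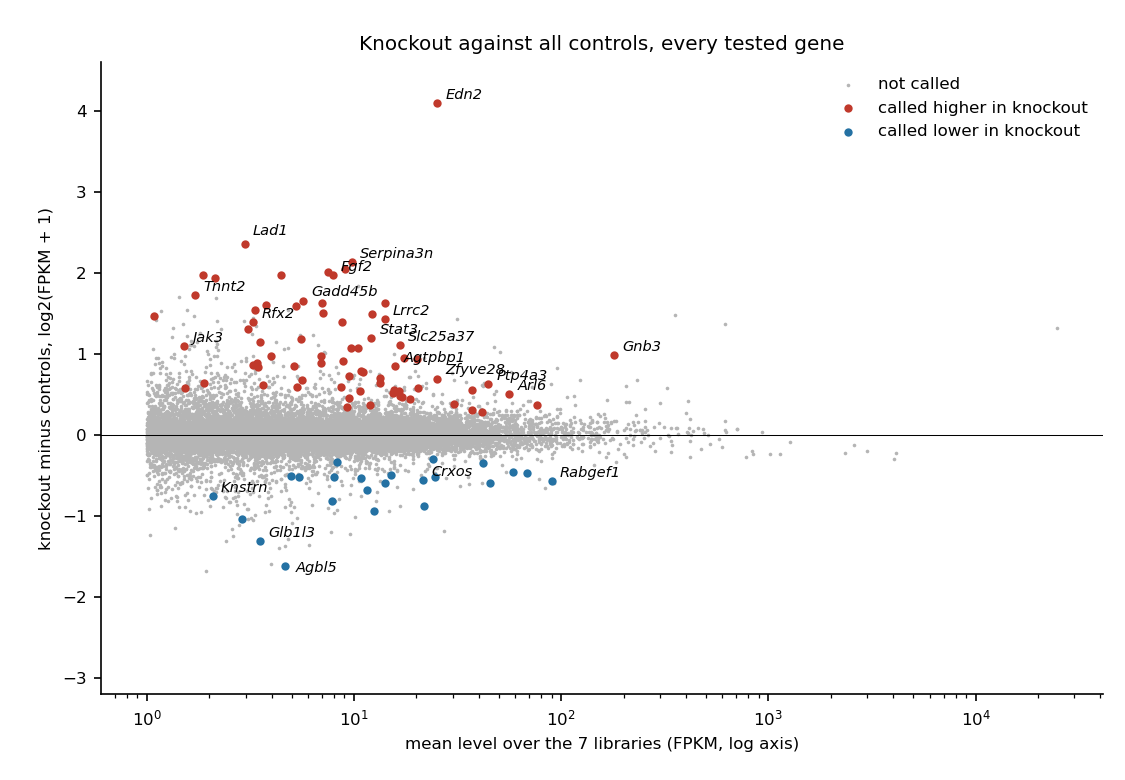
Log2 change of each of the 15472 tested genes, knockout minus controls on log2(FPKM + 1), against its mean level over 7 libraries in FPKM on a log axis. The 72 called rises (red) run up to 4.10 at Edn2, and the 23 called falls (blue) down to -1.61 at Agbl5. Grey points are genes that were not called.

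The call list was not equally firm throughout. Of the 95 genes, 22 were called in every alternative setting that tested them, and 38 in all 7 fits that left out 1 library. Counts also fell when libraries were left out. Without both lens-rich libraries 48 genes were called, 43 of them among the 95. Without both libraries with Xist 31 were called, 27 of them among the 95. Leaving out knockout 2 alone gave 45 calls, 40 of them among the 95. With the lens level as a covariate in all 7 libraries 98 were called, 84 of them among the 95. Whether library make-up or the smaller number of libraries lowered the counts was not tested. Coding genes below are given with the number of alternatives in which they were called, of those that tested them, where that was not all of them. No called gene changed sign in any alternative. As no called gene overlapped between groups, fits that only left out libraries or changed the pseudocount could not have turned a sign.

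Secreted signals included the largest rise of all. Edn2, which encodes the vasoactive peptide endothelin 2, stood at 60.1, 55.8 and 50.9 FPKM in knockout 1 to 3, at 3.10 and 1.47 FPKM in heterozygous 1 and 2 and at 2.99 and 1.90 FPKM in wildtype 1 and 2. Every knockout library was thus far above every control, with a ratio of means of 23.5 and a log2 change of 4.10 ± 0.18 (limma, adjusted p = 0.000296). The other 5 tested genes of the endothelin system lay between -0.27 and -0.06 without passing, including the converting enzyme gene Ece1 (-0.06) and the receptor gene Ednrb (-0.19). Fgf2, which encodes basic fibroblast growth factor, stood at 14.4, 15.2 and 13.8 FPKM in the knockouts against 3.64 and 2.37 FPKM in heterozygous and 2.82 and 3.00 FPKM in wildtype libraries (1.97 ± 0.11, adjusted p = 0.000296). Its knockout values lay close together and 4.89 times above the control mean. Fgf2 was the only called gene among 22 tested growth and neurotrophic factors, whose median was 0.00 and of whom 11 lay above and 11 below 0. None of the 28 tested growth factor receptors and feedback genes was called by limma or voom. Those with the smallest p are transcriptional readouts of FGF signalling, Etv4 (0.38 ± 0.13, adjusted p = 0.31) and the phosphatase gene Dusp6 (0.25 ± 0.09, adjusted p = 0.354). Both had an unadjusted p under 0.05, the only 2 of the 28 that did, against 12.2% of all tested genes. Their groups did not overlap, which held for 3 of the 28, against 13% of all tested genes. Neither count exceeded the share over all tested genes. Btc, the gene of the EGF-receptor ligand betacellulin, belonged to no list. It stood at 6.07, 5.61 and 6.05 FPKM in knockouts and between 1.98 and 3.14 FPKM in controls (0.98 ± 0.11, adjusted p = 0.0107), and was called in 16 of 23 alternatives, being lost when any of the 3 knockouts was left out.

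The rise at the Fgf2 locus extended to its neighbours. Fgf2os, an RNA on the opposite strand whose gene overlaps Fgf2, stood at 11.4, 12 and 12.2 FPKM in knockouts and between 3.18 and 3.91 FPKM in controls (1.51 ± 0.08, adjusted p = 0.000296). Gm43488, a predicted transcript 6825 bases upstream of Fgf2, also rose (1.15, adjusted p = 0.0033). It lies inside the Fgf2os gene on the opposite strand, and reads of the 2 strands there were not told apart. Nudt6, the coding gene on the other strand whose exons overlap those of Fgf2, overlapped between the groups, at 1.96 to 2.58 FPKM in knockouts and 1.06 to 2.47 FPKM in controls (0.31 ± 0.20, adjusted p = 0.559). Without strand marks, reads in the shared exons belong to either gene.

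Genes of cytokine signalling through JAK kinases and STAT factors were the next group. Of 28 tested members of that list 4 rose, against 0.465% of all tested genes, none fell, and the median was 0.10. Stat3, the transcription factor downstream of gp130, stood at 18.8, 19.5 and 16.8 FPKM in knockouts, at 7.38 and 7.33 FPKM in heterozygous and at 7.64 and 7.51 FPKM in wildtype libraries. The 4 controls lay close together, and the knockouts were 2.46 times higher (1.19 ± 0.06, adjusted p = 0.000296). Its paralog and neighbour Stat5a overlaps it and was below the filter, while Stat5b (-0.01) was not called. Jak3, a kinase of cytokine receptors, stood at 2.56, 2.70 and 2.58 FPKM in knockouts against 0.587 to 0.779 FPKM in controls (1.10 ± 0.09, adjusted p = 0.00211, called in 20 of 23 alternatives). The other kinases of the family were not called, with Jak1 at -0.17, Jak2 at 0.03 and Tyk2 at 0.22. Bcl3, an atypical inhibitor-family partner of NF-kappa-B and a STAT3 target, rose from 0.172 ± 0.059 FPKM (SD, n = 4) to 2.30 ± 0.783 FPKM (n = 3; 1.46 ± 0.18, adjusted p = 0.0147), from 4 to 8 reads in control libraries to 50 to 106 in knockouts, and was called in 14 of 23 alternatives. Cebpd, a C/EBP transcription factor of the acute-phase response, stood at 9.83, 10.4 and 6.93 FPKM in knockouts and 1.68 to 2.96 FPKM in controls (1.59 ± 0.19, adjusted p = 0.0127, 19 of 24 alternatives). The ligand genes Lif, Cntf, Il6, Il11 and Osm were below the filter. The receptor subunit gene Osmr lay just outside the threshold, at 1.77 to 1.93 FPKM in knockouts and 0.593 to 0.900 FPKM in controls (0.68 ± 0.11, adjusted p = 0.0504), and Il6st, which encodes gp130, stood at 0.36 (adjusted p = 0.101). The feedback inhibitor gene Socs3 (0.97 ± 0.20, adjusted p = 0.128) and Junb (0.76 ± 0.14, adjusted p = 0.0843) did not overlap between groups and did not pass. Osmr, Il6st and Socs3 were singled out after their values were seen. Without both lens-rich libraries 2 of these 28 genes were called, and likewise 2 without both libraries with Xist.

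Bcl6, a transcriptional repressor that belongs to no list, rose as well, from 2.77 ± 0.246 to 4.77 ± 0.355 FPKM (0.61 ± 0.08, adjusted p = 0.0211, 10 of 23 alternatives). The promoters of the risen genes were searched for the palindrome bound by STAT dimers. RefSeq windows of the GRCm38.p6 build, from 250 bases before the start site to 50 after it, were at hand for 43 of the 55 coding genes that rose. The broad form TTCNNNGAA, read on both strands, occurred in 4 of these 43 (9.30%) and in 7.94% of 10227 tested genes with a window, so its share lay near that of all genes. The strict form TTCCNGGAA, contained in the broad one, occurred in 3 of the 43 (6.98%) and in 1.54% of the tested genes. Those 3 genes were Bcl6, Gfap and Lrrc2. Of 9 fallen coding genes with a window, Crxos alone held it. The windows of these 4 genes are shown because they carry the strict form; capitals mark matches to the broad form, which includes it. A match is a description of the letters and not a binding site.
Bcl6: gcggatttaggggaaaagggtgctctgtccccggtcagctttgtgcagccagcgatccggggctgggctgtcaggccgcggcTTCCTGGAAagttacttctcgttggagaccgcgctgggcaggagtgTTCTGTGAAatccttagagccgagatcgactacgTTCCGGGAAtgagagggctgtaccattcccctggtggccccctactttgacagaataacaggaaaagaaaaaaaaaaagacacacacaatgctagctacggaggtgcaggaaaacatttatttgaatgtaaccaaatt
Gfap: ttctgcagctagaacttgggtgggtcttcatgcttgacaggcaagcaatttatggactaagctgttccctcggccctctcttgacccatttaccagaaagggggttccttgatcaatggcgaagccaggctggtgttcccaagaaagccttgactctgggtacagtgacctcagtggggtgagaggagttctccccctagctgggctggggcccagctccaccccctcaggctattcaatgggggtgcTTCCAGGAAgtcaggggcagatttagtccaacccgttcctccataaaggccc
Lrrc2: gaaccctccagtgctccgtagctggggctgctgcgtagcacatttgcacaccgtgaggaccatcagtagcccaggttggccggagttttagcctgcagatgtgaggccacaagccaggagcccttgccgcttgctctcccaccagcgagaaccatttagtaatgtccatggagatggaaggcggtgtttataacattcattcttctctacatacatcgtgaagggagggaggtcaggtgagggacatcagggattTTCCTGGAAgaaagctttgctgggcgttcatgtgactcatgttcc
Crxos: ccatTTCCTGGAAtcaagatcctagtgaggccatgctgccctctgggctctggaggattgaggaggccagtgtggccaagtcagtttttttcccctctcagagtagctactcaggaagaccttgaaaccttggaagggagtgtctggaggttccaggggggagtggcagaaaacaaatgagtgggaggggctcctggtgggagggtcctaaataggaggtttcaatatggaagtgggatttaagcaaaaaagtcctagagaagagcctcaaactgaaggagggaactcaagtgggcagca
The Bcl6 window lies at chr16:23981234-23981533 on the minus strand and holds 3 broad matches that begin at positions -168, -122 and -88 relative to the start site, whereas a second annotated Bcl6 start has 1. The Gfap window lies at chr11:102897151-102897450 on the minus strand with its match across the start site, the Lrrc2 window at chr9:110951295-110951594 on the plus strand with its match beginning 5 bases after it, and the Crxos window at chr7:15901396-15901695 on the plus strand with its match at the far upstream end. Stat3, Edn2 and Fgf2 hold no match in these windows. The motif TAATCC, read by the photoreceptor factor CRX, occurred in 2 of the 43 windows (4.65%, Gadd45b and Mest) and in 7.31% of the tested genes.

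**Figure D2:**
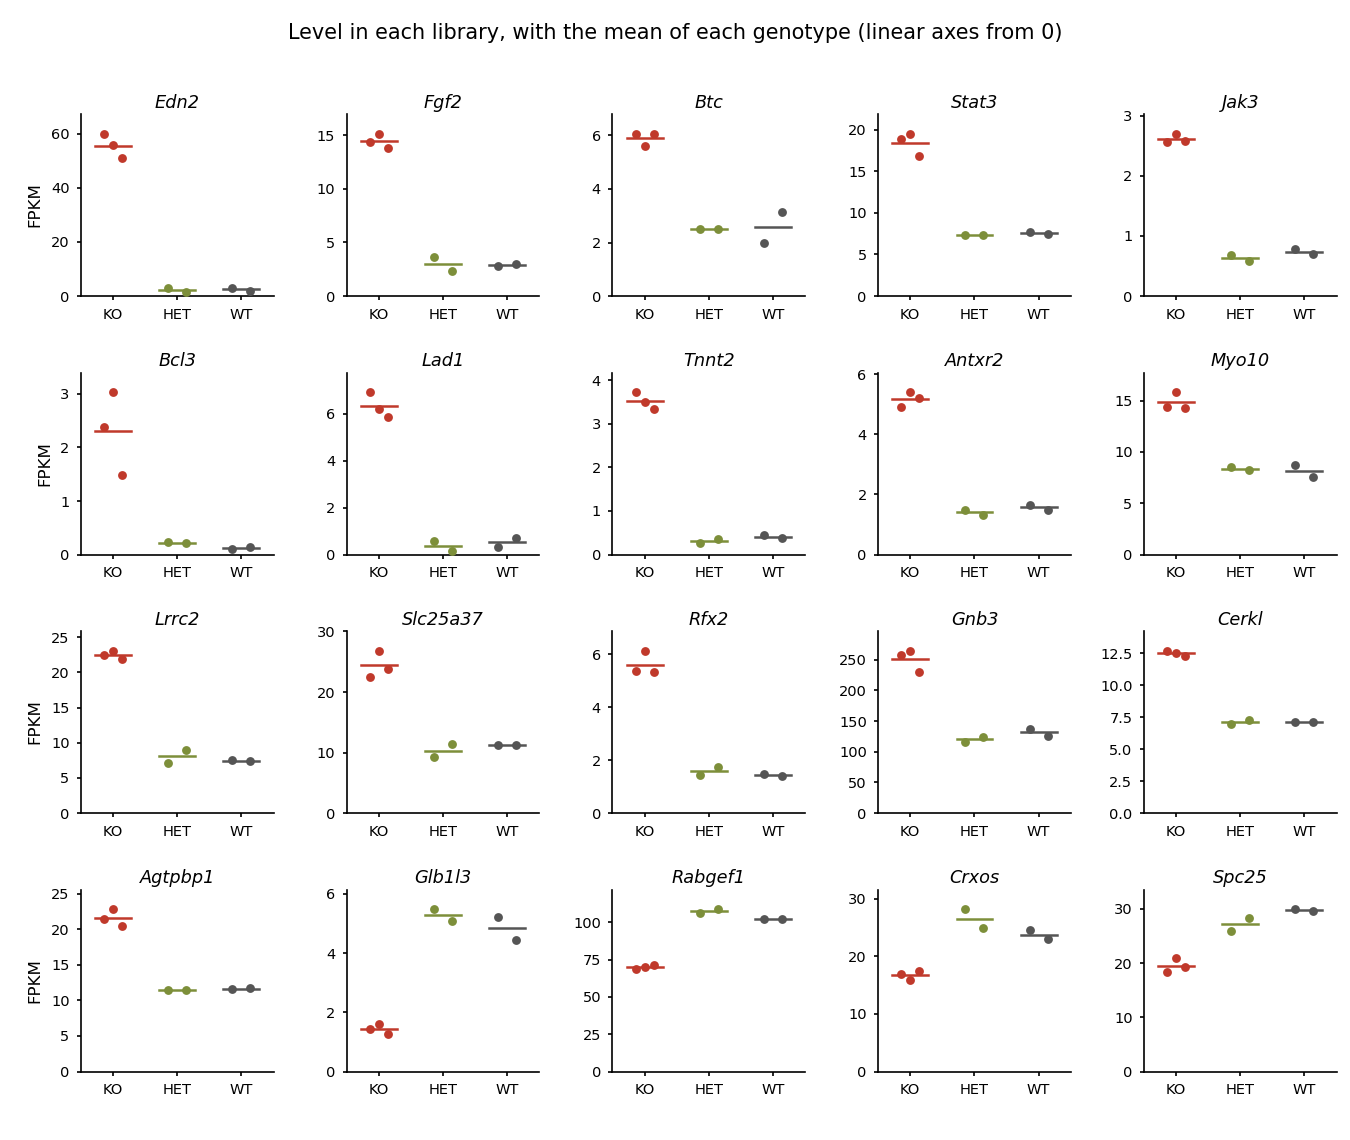
FPKM in each of the 7 libraries for 20 named genes, 1 panel a gene with its own linear axis, grouped as knockout (n = 3), heterozygous (n = 2) and wildtype (n = 2), with a bar at each genotype's mean. In all panels the knockout points lie wholly above or wholly below the 4 controls.

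Photoreceptor genes showed 2 called changes in the lists, beside small differences that did not pass, most of them lower in knockouts in the rod and cone lists. Gnb3, which encodes the beta subunit of cone transducin, stood at 258, 265 and 230 FPKM in knockouts, at 116 and 125 FPKM in heterozygous and at 137 and 126 FPKM in wildtype libraries. The level rose to 251 ± 18.2 FPKM (SD, n = 3) from 126 ± 8.88 FPKM (n = 4; 0.99 ± 0.08, adjusted p = 0.0013) and was called in all 24 alternatives. It was alone among 18 tested cone genes, whose median was -0.06 with 14 below 0. The cone opsin genes did not pass, with Opn1sw at -0.05 (95% interval -0.18 to 0.08) and Opn1mw at -0.16 (-0.43 to 0.11), and cone arrestin Arr3 stood at -0.37 (adjusted p = 0.336). Crxos, a gene named for its place on the strand opposite the photoreceptor factor Crx, was the only called member of 18 photoreceptor transcription factors. Of these 18, 9 did not overlap between groups, 6 lower and 3 higher in knockouts, against 13% of all tested genes, and 7 had an unadjusted p under 0.05, against 12.2%. Their median was 0.02. Crxos stood at 16.9, 15.9 and 17.4 FPKM in knockouts and between 23 and 28.2 FPKM in controls (-0.56 ± 0.07, adjusted p = 0.021), and was called in 13 of 24 alternatives. Crx itself differed by -0.07 (adjusted p = 0.569).

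None of the 33 tested rod genes was called by limma, although 14 of them did not overlap between groups, 13 of these lower in knockouts, against 13% of all tested genes without overlap and 6.26% lower. An unadjusted p under 0.05 was reached by 8 of the 33, against 12.2%, and voom on the recovered reads called 1 of them, higher. Their median was -0.07, with 21 of 33 below 0, and for 31 of 33 the 95% interval lay within 0.5 of 0. Sag, the gene of rod arrestin, lay above its controls, at 467 to 486 FPKM in knockouts against 322 to 380 FPKM in controls (0.42 ± 0.07, adjusted p = 0.0591). The summed level of the rod list was 15671 to 16295 FPKM in knockouts and 17056 to 17711 FPKM in controls, without overlap. Such a sum rests mostly on the most abundant genes. The mean of log2(FPKM + 1) over the same genes did overlap, at 8.05 to 8.10 in knockouts and 8.06 to 8.18 in controls. Of 22 genes of the photoreceptor ribbon synapse none was called by limma or voom (2 at an unadjusted p under 0.05), and all 22 intervals lay within 0.5 of 0. Cerkl, a gene of inherited retinal dystrophy that belongs to no list, rose from between 6.98 and 7.26 FPKM in controls to 12.7, 12.5 and 12.3 FPKM in knockouts (0.73 ± 0.05, adjusted p = 0.000498). Its exons overlap those of Itga4 (0.40, adjusted p = 0.0715) and Neurod1 (0.22, adjusted p = 0.25).

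**Figure D3:**
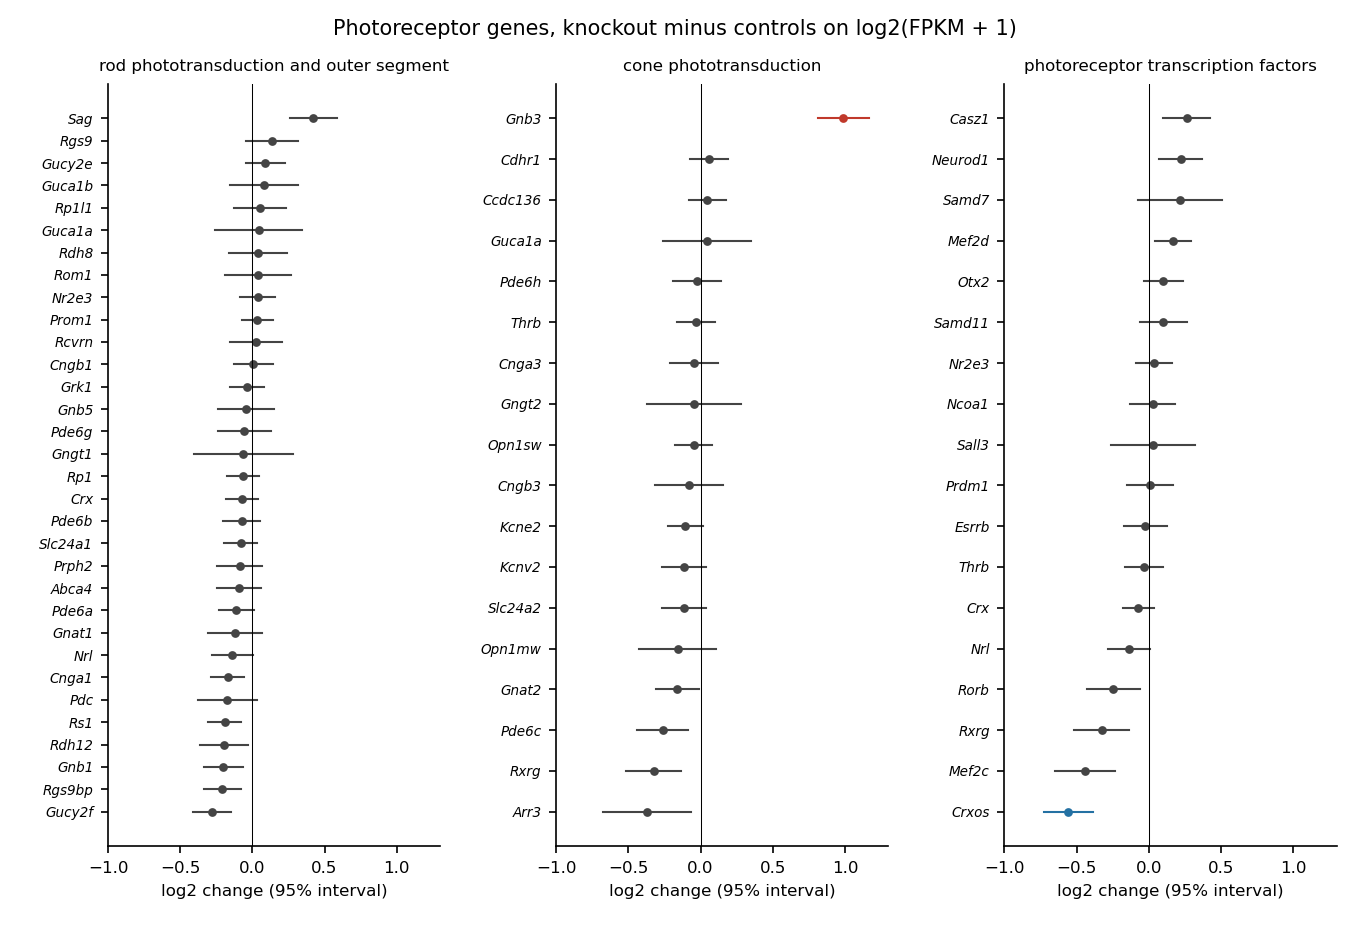
Log2 change with its 95% interval for the tested genes of 3 lists, 32 of the 33 rod genes, 18 cone genes and 18 photoreceptor transcription factors. Gnb3 (red, 0.99) and Crxos (blue, -0.56) were called. Of the 33 rod genes tested, 21 lie below 0, at a median of -0.07, and Sag (0.42) is the highest.

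Genes of tubulin glutamylation held 2 called changes in opposite directions among 13 tested, Agbl5 itself and Agtpbp1. Agtpbp1, the gene of the deglutamylase CCP1, stood at 21.5, 22.8 and 20.4 FPKM in knockouts and at 11.4, 11.4, 11.6 and 11.8 FPKM in controls. The controls were almost equal, and the rise of 0.85 ± 0.05 (ratio of means 1.87, adjusted p = 0.000445) was called in all 24 alternatives. The other genes did not pass: the glutamylase gene Ttll5 stood at 0.31 (adjusted p = 0.201), the glutamylase subunit gene Tpgs1 at 0.25 and the deglutamylase gene Agbl3 at -0.22. The list median was -0.07, and the intervals of 10 of the 13 lay within 0.5 of 0.

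Genes of the cilium and its cargo gave few calls, and most of their intervals were narrow. Arl6, a small GTPase that brings the BBSome coat to membranes, rose from between 42.9 and 53.3 FPKM to 65.8, 69.6 and 67.9 FPKM (0.51 ± 0.08, adjusted p = 0.0429), but held in 7 of 24 alternatives. It was the only call among 40 genes of the BBSome, transition zone and connecting cilium, of which 37 intervals lay within 0.5 of 0. The BBSome coat genes Bbs1, Bbs2 and Bbs4 all stood at -0.02. Of 33 intraflagellar transport genes none was called by limma or voom (8 at an unadjusted p under 0.05, against 12.2% of all tested genes, median -0.05, 30 intervals within 0.5), and Tctex1d2, a dynein light chain of the retrograde motor, came closest at -0.39 (adjusted p = 0.0768). Of 36 tubulins, microtubule-associated proteins and severing enzymes none was called by limma and 1 by voom (7 at an unadjusted p under 0.05, median -0.01, 32 intervals within 0.5). Tubb2b, a beta tubulin of immature neurons, was the nearest, at 9.29, 10.6 and 8.19 FPKM in knockouts and 5.38 to 6.54 FPKM in controls (0.56 ± 0.09, adjusted p = 0.06). The 28 genes of outer segment cargo trafficking had no call by limma or voom (7 at an unadjusted p under 0.05) and a median of 0.07. In the motile cilium list of 9, Rfx2, a transcription factor of ciliary genes, alone was called. It stood at 5.36, 6.15 and 5.35 FPKM in knockouts and 1.4 to 1.75 FPKM in controls (1.4 ± 0.09, adjusted p = 0.000445), while its relatives Rfx1 (0.13), Rfx3 (-0.06) and Rfx7 (-0.11) and the ciliogenesis factor Foxj1 (-0.09) were not called.

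Of the 65 coding calls, 30 belonged to none of the 54 gene lists, 27 of them rises. The groups in the next 4 paragraphs were formed after the values were seen and order them, with listed genes of like role, so their size and shared direction carry no test. The lists themselves were chosen with earlier results of these data known, so counts of their called members carry no test either.

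Adhesion and contractile genes included some of the steepest rises. Lad1, which encodes ladinin, an anchoring filament protein of basement membranes, stood at 6.94, 6.19 and 5.87 FPKM in knockouts and at 0.135 to 0.702 FPKM in controls, from 273 to 312 reads against 6 to 36 (2.36 ± 0.15, ratio of means 14.4, adjusted p = 0.000539). Tnnt2, the gene of cardiac troponin T, stood at 3.73, 3.49 and 3.33 FPKM in knockouts and 0.256 to 0.441 FPKM in controls, from 353 to 382 reads against 28 to 50 (1.73 ± 0.10, ratio 9.72, adjusted p = 0.000411). Both were called in all 23 alternatives that tested them. They are neighbours on chromosome 1 of the mm10 build, on the plus strand, with Lad1 at chr1:135818598-135833342 and Tnnt2 at chr1:135836354-135852260, 3011 bases apart. Lad1 and Tnnt2 were the only calls among 38 genes of the actin cytoskeleton and adhesion list, whose median was 0.11. Antxr2, a receptor for collagen and laminin, rose from between 1.32 and 1.64 to between 4.91 and 5.41 FPKM (1.31 ± 0.08, adjusted p = 0.000411). Myo10, the myosin of filopodia, rose from between 7.55 and 8.71 to between 14.3 and 15.8 FPKM (0.77 ± 0.07, adjusted p = 0.00201, all 24 alternatives). Igsf11, an adhesion protein of the immunoglobulin superfamily, rose by 0.52 ± 0.05 (adjusted p = 0.0069, 17 of 24), and Podxl, which encodes the sialomucin podocalyxin, by 0.29 ± 0.04 (adjusted p = 0.0387, 7 of 24 and no fit that left out 1 library).

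Mitochondrial and ion-handling genes formed another set. Slc25a37, the iron importer mitoferrin 1 of the inner mitochondrial membrane, stood at 22.5, 26.9 and 23.8 FPKM in knockouts and at 9.25, 11.4, 11.3 and 11.3 FPKM in controls (1.11 ± 0.09, ratio 2.26, adjusted p = 0.00182, 23 of 24). Mpv17l2, a mitochondrial ribosome assembly factor, rose from between 10.1 and 11 to between 13.8 and 14.1 FPKM (0.37 ± 0.05, adjusted p = 0.0215, 9 of 24). Cnnm4, a magnesium transporter, and Ptp4a3, a phosphatase that binds CNNM proteins, both rose: Cnnm4 from 15.1 to 17.6 FPKM up to 21.2 to 22.8 FPKM (0.45 ± 0.06, adjusted p = 0.0306, 8 of 24), and Ptp4a3 from 33.2 to 40.4 FPKM up to 52.7 to 60.1 FPKM (0.63 ± 0.08, adjusted p = 0.0173, 13 of 24). The 32 nuclear genes of the respiratory chain had a median of 0.03 and no call (1 at an unadjusted p under 0.05), and the 13 tested mitochondrially encoded genes a median of -0.23 and no call by limma or voom, with 6 of 13 lower without overlap, against 6.26% of all tested genes, and 9 at an unadjusted p under 0.05, against 12.2%. Among the latter mt-Nd4 stood at -0.24 (adjusted p = 0.258).

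Membrane traffic, ubiquitin and nuclear import contributed a series of moderate, tightly measured changes. Sec22c, a SNARE-related protein of the early secretory pathway, rose from between 13.2 and 14.8 to 27.0, 30.8 and 26.2 FPKM (0.93 ± 0.07, adjusted p = 0.00115). Zfyve28, an endosomal protein that limits EGF-receptor signalling, rose from between 19.2 and 20.6 to between 31.8 and 33.4 FPKM (0.70 ± 0.05, adjusted p = 0.000604). Rabgef1, the exchange factor for the endosomal GTPase RAB5, went down, from 106, 109, 102 and 102 FPKM in controls to 68.7, 70.0 and 71.7 FPKM in knockouts (-0.57 ± 0.05, ratio 0.669, adjusted p = 0.00165, 23 of 24). Rabgef1 thus fell from a level above most other called genes, with little spread in either group. The adaptor genes of ubiquitin ligases Klhl29 (1.07 ± 0.08, adjusted p = 0.000913, all 24) and Klhl36 (0.56 ± 0.07, adjusted p = 0.0202, 11 of 24) and the ligase gene Rnf144b (0.79 ± 0.06, adjusted p = 0.00174, 22 of 24) rose. The importin Ipo5 rose (0.38 ± 0.06, adjusted p = 0.0371, 7 of 24), and its relative Ranbp6 fell (-0.29 ± 0.05, adjusted p = 0.0489, 4 of 24). Lamtor5, a subunit of the lysosomal Ragulator complex, rose from between 32.8 and 34.7 to between 40.8 and 42.4 FPKM (0.30 ± 0.04, adjusted p = 0.0257, 7 of 24). None of the 26 listed proteasome and ubiquitin genes was called by limma or voom, with 5 at an unadjusted p under 0.05.

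Regulators of transcription and stress genes completed the rises. Gadd45b, a stress-induced regulator, stood at 10.4, 11.5 and 8.05 FPKM in knockouts and 1.98 to 2.96 FPKM in controls (1.66 ± 0.14, adjusted p = 0.00196, all 24 alternatives), while its relatives Gadd45a (-0.06) and Gadd45g (0.26) were not called. Gadd45b was the only call among 25 tested cell death genes of that list. Bmf, a pro-apoptotic BH3-only protein outside it, rose from 4.15 ± 0.323 to 6.79 ± 0.66 FPKM (0.60 ± 0.08, adjusted p = 0.0234, 9 of 24 and no fit that left out 1 library). Ahr, the aryl hydrocarbon receptor, rose from between 9.73 and 11 to 17.1, 18.1 and 16.9 FPKM (0.70 ± 0.06, adjusted p = 0.00201, 20 of 24), together with the RNA gene Gm48236 that overlaps it on the other strand (1.18, adjusted p = 0.0429). E2f6, a repressor of the E2F family, rose from 6.94 ± 0.54 to 11 ± 0.451 FPKM (0.59 ± 0.07, adjusted p = 0.0115, 16 of 24), and Atf7 by 0.35 ± 0.05 (adjusted p = 0.0343, 6 of 24). Lrrc2, a leucine-rich repeat protein, stood at 22.5, 23.1 and 21.9 FPKM in knockouts and at 7.10 to 9.01 FPKM in controls (1.43 ± 0.08, adjusted p = 0.000317, all 24), with the unspliced transcript Gm43535 inside it at 1.97 (adjusted p = 0.00057). The imprinted gene Mest rose by 0.58 ± 0.06 (adjusted p = 0.00541, 18 of 24), the neural immunoglobulin-family gene Prtg by 0.58 ± 0.09 (adjusted p = 0.0426, 4 of 23), the GPI-anchor remodelling gene Pgap3 by 0.54 ± 0.09 (adjusted p = 0.0457, 7 of 24) and the mRNA decapping scavenger gene Dcps by 0.48 ± 0.07 (adjusted p = 0.0267, 9 of 24). Acvr2b, an activin receptor, was the only call among 30 genes of TGF-beta and BMP signalling (0.56 ± 0.08, adjusted p = 0.0237, 9 of 24), with Acvr2a at -0.16. The immediate early genes, 23 tested, gave no call by limma and 1 by voom, at a median of 0.18 and with 5 at an unadjusted p under 0.05.

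Glial and immune lists held a further set of rises. Of 20 tested genes of reactive glia and astrocytes 7 rose, against 0.465% of all tested genes, none fell, and the median was 0.63. As this list was chosen with earlier results of these data known, its count carries no test. Edn2, Fgf2, Stat3 and Cebpd, described above, are among the 7, and 5 were called without both lens-rich libraries and 4 without both libraries with Xist. Gfap, the intermediate filament of reactive glia, stood at 20.1, 23.2 and 16.3 FPKM in knockouts and at 9.62, 4.94, 4.96 and 6.74 FPKM in heterozygous 1 and 2 and wildtype 1 and 2 (1.49 ± 0.22, adjusted p = 0.0324). Heterozygous 1, a lens-rich library, was the highest control, and Gfap was called in 11 of 24 alternatives and in 1 of 7 fits that left out 1 library, the fit without heterozygous 1, with adjusted p up to 0.264. The protease inhibitor genes A2m (1.60 ± 0.19, adjusted p = 0.0132, 17 of 23) and Serpina3n (2.13 ± 0.28, adjusted p = 0.0196, 16 of 24) and the procollagen processing enhancer gene Pcolce (1.4 ± 0.14, adjusted p = 0.00494, 22 of 24) also rose, 3 of the 4 called genes among 36 of matrix processing. The fourth was Serping1, the inhibitor of complement C1 (0.91 ± 0.12, adjusted p = 0.0234, 13 of 24). Among identity genes of Mueller glia 1 of 22, the thyroid-hormone binding gene Crym, rose (0.95 ± 0.09, adjusted p = 0.0033, 21 of 24), at a list median of 0.04, and glutamine synthetase, Glul, stood at -0.15 (adjusted p = 0.459). The summed level of this identity list was 2178 to 2493 FPKM in knockouts and 2041 to 2145 FPKM in controls. Its mean of log2(FPKM + 1) overlapped between groups, at 5.31 to 5.47 in knockouts and 5.18 to 5.43 in controls.

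Of 16 tested microglial genes 5 rose, with a median of 0.45, and of 11 complement genes 5 rose, with a median of 0.67. Among all tested genes 0.465% were called higher. On both lists stood 3 of the called genes. The subunits of complement C1q, encoded side by side on chromosome 4, rose together, C1qa by 0.97 ± 0.14 (adjusted p = 0.0343, 10 of 24), C1qb by 0.89 ± 0.07 (adjusted p = 0.00183, 23 of 24) and C1qc by 0.89 ± 0.10 (adjusted p = 0.00869, 17 of 23). C4b, the fourth component, rose from 1.87 to 3.64 FPKM up to 11.8 to 16.3 FPKM (2.01 ± 0.18, adjusted p = 0.00227, 22 of 24). Csf1r, the growth factor receptor of microglia, rose from between 2.13 and 2.57 to 4.86, 4.88 and 5.04 FPKM (0.83 ± 0.07, adjusted p = 0.00211, 19 of 22), and the protease gene Ctss by 1.07 ± 0.12 (adjusted p = 0.0118, 18 of 24). The summed level of 26 microglial markers was 84.5 to 106 FPKM in knockouts against 48.2 to 72.3 FPKM in controls, without overlap, and the defining marker Tmem119 stood at 0.758 to 1.47 against 0.397 to 0.687 FPKM. The part of cell number in these rises was not tested. All 21 tested interferon and antigen presentation genes lay above 0 (median 0.34), and the class I histocompatibility genes H2-K1 (0.64 ± 0.07, adjusted p = 0.0055, 19 of 23) and H2-D1 (0.47 ± 0.05, adjusted p = 0.0113, 16 of 24) were called. Members of the H2 family share near-identical sequence, so reads between them are uncertain. Without both libraries with Xist 1 microglial, 1 complement and 0 interferon genes were called, a fit of 2 knockouts against 3 controls.

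**Figure D4:**
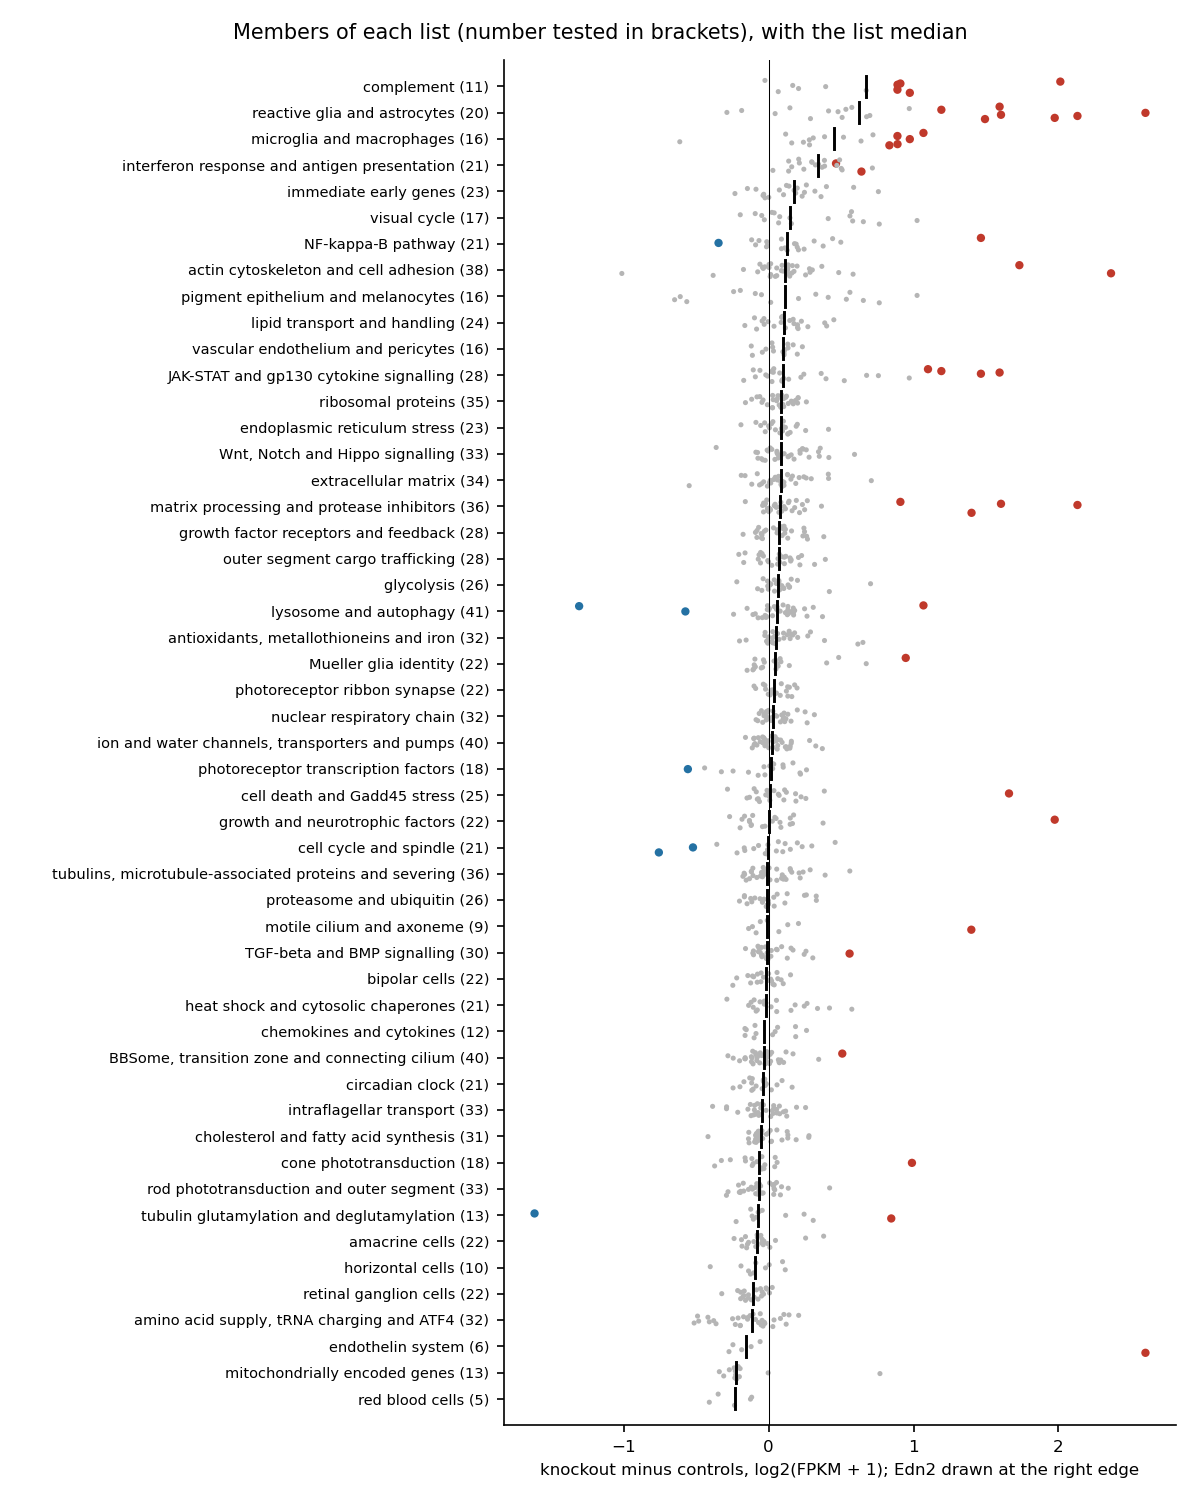
Log2 change of every tested member of 51 gene lists, 1 row a list, with called members coloured and a black bar at the list's median; Edn2 (4.10) is drawn at the right edge. The reactive glia (0.63), complement (0.67) and microglia (0.45) medians lie to the right, and those of the lists of photoreceptors, cilia and inner neurons lie between -0.11 and 0.07.

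Falls were fewer and smaller. Glb1l3, related by sequence to lysosomal beta-galactosidase, fell furthest after Agbl5 among coding genes, from 5.49, 5.09, 5.22 and 4.46 FPKM in controls to 1.44, 1.62 and 1.28 FPKM in knockouts, from 174 to 203 reads to 46 to 60 (-1.31 ± 0.09, ratio 0.286, adjusted p = 0.000639). It was called in all 23 alternatives that tested it, while its relatives Glb1 (-0.02), Glb1l (0.05) and Glb1l2 (-0.24) were not called. Of 21 cell cycle and spindle genes 2 fell, the kinetochore genes Spc25 (-0.52 ± 0.07, adjusted p = 0.021, 11 of 24) and Knstrn (-0.76 ± 0.12, adjusted p = 0.04, 8 of 23), while Ccna2 stood at -0.01. Without both lens-rich libraries neither was called. Spc25 stood at 18.4, 21 and 19.3 FPKM in knockouts and 25.9 to 29.9 FPKM in controls. Knstrn shares exons with the antisense RNA gene Gm14091, which fell too (-0.82, adjusted p = 0.0422). Fam3c, a secreted cytokine-like protein, fell from between 60.7 and 72.0 to 48.9, 47.7 and 48.2 FPKM (-0.45 ± 0.06, adjusted p = 0.0225, 14 of 24). Tnfaip3, the ubiquitin-editing inhibitor A20 of NF-kappa-B, fell from between 44.1 and 47.3 to 35.3, 34.6 and 38.5 FPKM (-0.35 ± 0.05, adjusted p = 0.0429, 5 of 24 and no fit that left out 1 library). The histone gene Hist2h2be fell by 0.33 on the log2 scale (adjusted p = 0.0457, 4 of 24).

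Of the 95 calls 30 were not protein-coding, 17 rises and 13 falls. Antisense RNAs made up 11 of them, unspliced transcripts awaiting experimental evidence 7 and intergenic RNAs 6. Within or across a tested coding gene lay 21 of the 30, on the opposite strand in 17 cases. In 19 of the 21 the change had the same sign as that of the coding gene, which was itself called in 5. Several of the uncalled coding genes counted there lay near 0, such as Mrps27 (0.05), Ppfia3 (0.06) and Galnt7 (0.06). The share over all overlapping gene pairs was not computed, so the count carries no test. Without strand marks, reads of both partners in shared exons cannot be told apart. Gm16055, antisense to Umad1, was among the most tightly measured falls, from 26.4, 28.1, 27.4 and 27.3 FPKM in controls to 14.2, 14.8 and 14.4 FPKM in knockouts (-0.87 ± 0.04, adjusted p = 0.000296), beside -0.19 for Umad1. Gm12802, antisense to Tceanc2, rose from between 0.312 and 0.528 to 4.54, 4.03 and 4.72 FPKM (1.94 ± 0.10, adjusted p = 0.000296), beside 0.20 for Tceanc2. Gm15983, antisense to Eef2kmt, rose from between 5.95 and 7.68 to 23.4, 25.0 and 22.6 FPKM (1.63 ± 0.08, adjusted p = 0.000296), beside 0.20 for Eef2kmt. All 3 changed far more than the coding gene they overlap. Gm37764, inside the phosducin gene Pdc, fell from between 8.30 and 10.02 to between 6 and 6.36 FPKM (-0.52 ± 0.07, adjusted p = 0.0225, 13 of 24). Pdc itself was not called, at -0.17.

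Called genes that neighbour each other moved the same way. Within 100 kb of each other lay 13 pairs formed by 20 called genes, and both members had the same direction in all 13 pairs. As 72 of the 95 calls rose, many pairs of called genes would share a direction anyway. The pairs were not independent, as the C1q genes and the Fgf2 locus gave several each. In other pairs the genes overlap, and without strand marks they may share reads. Besides Lad1 with Tnnt2, the C1q genes and the Fgf2 locus, the pairs were Bcl3 with its antisense RNA gene Gm16174 (1.97, adjusted p = 0.00494), Ahr with Gm48236, Knstrn with Gm14091, Lrrc2 with Gm43535, the divergent RNA genes 4930412F12Rik (1.62) and AW046200 (0.85), and Pcolce with Gm17112 (0.54). Gm48236 was called in 6 of 24 alternatives and Gm17112 in 4 of 24.

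Inner retinal neurons gave no call by limma or voom in any list, with 3 bipolar, 0 amacrine, 1 horizontal and 5 ganglion cell genes at an unadjusted p under 0.05. The 22 bipolar genes had a median of -0.02 with 21 intervals within 0.5 of 0. Medians lay lower in 22 amacrine genes (-0.08, 18 below 0), 10 horizontal cell genes (-0.10) and 22 ganglion cell genes (-0.11, 20 below 0, 21 intervals within 0.5), against 0.00 for all tested genes. Elavl4, a neuronal RNA-binding protein, was the ganglion cell gene nearest to the threshold, at -0.32 (adjusted p = 0.133). Metabolic and stress lists gave no call by limma, in 31 cholesterol and fatty acid genes, 26 glycolytic genes, 23 genes of endoplasmic reticulum stress and 21 of heat shock, where unadjusted p-values under 0.05 numbered 4, 4, 2 and 4. A single glycolytic gene was called by voom. Of 32 genes of amino acid supply, tRNA charging and ATF4, 25 lay below 0 (median -0.12) and none was called by limma and 1 by voom, with 6 at an unadjusted p under 0.05. In that list the asparagine synthetase gene Asns stood at -0.42 (adjusted p = 0.089). The 35 ribosomal protein genes had a median of 0.09. When FPKM were rescaled to TPM, which set every library to the same total, the median of all tested genes moved by -0.12, and 18 of 54 list medians changed sign, all 18 keeping their sign relative to that shift. They included the ribosomal, cargo trafficking, ribbon synapse and Mueller identity lists.

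The pooled calls were then set against each control genotype. A limma fit with the 3 genotypes as separate levels called 50 genes (0.323%) between knockout and wildtype, 49 (0.317%) between knockout and heterozygous and 0 (0%) between heterozygous and wildtype, where 619 genes had an unadjusted p under 0.05. The first and second of these share the 3 knockouts. All 95 pooled calls had the same sign against either control genotype. That outcome was fixed in advance, since knockouts and controls did not overlap for any of the 95. Of the 72 rises 40 were also called against wildtype alone and 40 against heterozygous alone, and of the 23 falls 8 and 6. The heterozygous mean lay between those of knockout and wildtype for 50 of the 95. Heterozygous and wildtype libraries did not overlap for 38 of the 95, against 30% of all tested genes. Besides Agbl5 itself (-2.03 against wildtype, -1.20 against heterozygous), Serpina3n differed most between controls, at 2.57 against wildtype and 1.69 against heterozygous. Among the rises knockout 2 was the highest library for 40 genes, knockout 1 for 23 and knockout 3, one of the libraries with Xist, for 9.

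**Figure D5:**
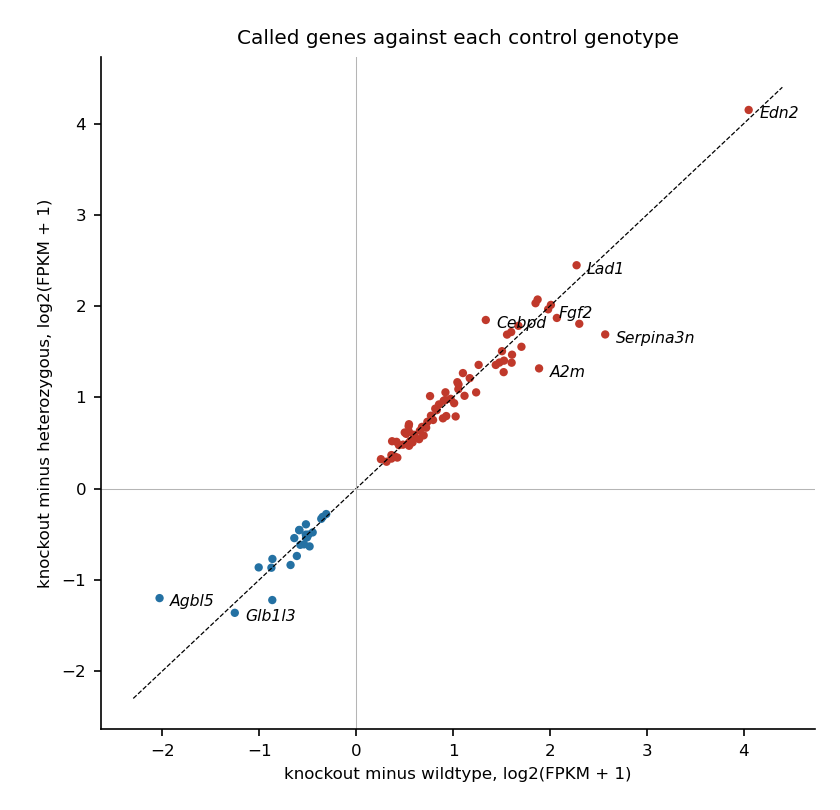
Log2 change of the 95 called genes, knockout minus wildtype (x axis) against knockout minus heterozygous (y axis), both sharing the 3 knockouts; the dashed line marks equal values. All points lie in the upper right or lower left of the origin, with Agbl5 (-2.03 and -1.20) and Serpina3n (2.57 and 1.69) off the line.

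A large change alone did not make a call. Of 102 tested genes with a log2 change of at least 1 in size, 33 were called and 69 were not, 48 of these higher and 21 lower, and 21 of the 69 did not overlap between groups. Most of the 69 were entries of microRNAs, other small RNAs or predicted genes. Many of them stood at 0 FPKM in some libraries, such as Mir32 and Gm17651. The predicted gene Gm23935 ran from 5184 FPKM in wildtype 2 to 51208 FPKM in knockout 1. Ttr, which encodes the retinol carrier transthyretin and is abundant in pigment epithelium, was one of the 69, at 86.6, 50.8 and 77.2 FPKM in knockouts against 21.4 to 45.2 FPKM in controls (1.02 ± 0.27, adjusted p = 0.216). The pigment epithelium gene Rpe65 varied from 3.75 to 12.9 FPKM over the 7 libraries (0.76, adjusted p = 0.299).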

How the data were processed

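RNA was selected with poly-T beads and sequenced from a kit that does not mark the strand, per the labels' protocols. The authors deposited 1 table of FPKM values per gene and library. TopHat2 2.0.9, Bowtie2 2.0.6, HTSeq, DESeq and the builds mm10 and GRCm38 are named in the submitters' processing notes, and the annotation release was not given in the sources used here. FPKM times GENCODE M21 exon length gave whole reads (within 0.01) for 96.8% of values above 0. These served only for depth, for the reads printed beside some genes and for an added alternative, voom, on 14796 genes, which called 148.

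Genes averaging 1 FPKM or more over the 7 libraries were fitted on log2(FPKM + 1) with limma 3.58.1 in R 4.3.3 (trended empirical Bayes, 5 residual and 2.61 prior degrees of freedom). Knockout was the only term, p-values were adjusted by Benjamini-Hochberg over all 15472 genes, and the threshold was 0.05. The intervals are 95% and without adjustment. The fit was tested on simulated data with the same spread for every gene and no lens or sex differences between libraries. Such data are cleaner than these libraries, so that test cannot speak for the fit under those differences. Named genes were Agbl5, the called genes with the 20 largest rises and falls among symbols that are no predicted names, up to 6 called members of each list (2 uncalled ones where none was called) and 7 markers. Further genes are said in the text to be chosen after their values were seen, or stand beside a named gene as its relative or neighbour. Genes, lists and tests were chosen with earlier results of these data known. Promoter windows came from RefSeq (GRCm38.p6). Alternatives changed the pseudocount, filter, scale, variance model, controls, covariates and libraries. Some items are not reported here. List symbols that did not match the table were not analysed here.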

Additional observations from a re-analysis of the deposited data

Results flagged for a closer look

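Among the 141 named genes, 13 had 1 control library far from the other 3, by a gap to its nearest neighbour, as a share of the range of the 4, above Dixon's 95% critical value, where chance gives about 1 in 20. Heterozygous 1 was that library for 8 of them. It was the highest control for the lens genes Cryaa (gap 0.995 of the range, 1733 FPKM against at most 12.3), Cryga (1) and Lgsn (0.922), for Pcolce (0.909, 6.2 against 4.37 FPKM), and for the uncalled genes Idi1 (0.868) and Adra2a (0.857). It was the lowest control for Slc25a37 (0.932, 9.25 against 11.3 FPKM) and Klhl36 (0.878, 27.2 against 31.7 FPKM). Wildtype 2 was the highest control for Xist (1.000, 181 FPKM) and the lowest for the Y-linked genes Uty (0.914) and Kdm5d (0.935), both at 0 FPKM there, and for Atf7 (0.953, 7.80 against 8.25 FPKM). Heterozygous 2 was the highest control for the Notch target gene Hey2 (0.958, 3.35 against 2.77 FPKM).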

How the results depend on the processing

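Against the 95 calls (72 higher, 23 lower) of the pooled comparison, the total, higher and lower counts were 63, 43 and 20 on the TPM scale, 53, 42 and 11 with wildtype as the only controls and 31, 27 and 4 with heterozygous as the only controls. They were 48, 41 and 7 without both lens-rich libraries, 31, 26 and 5 without both libraries with Xist, and 148, 112 and 36 by voom on recovered reads, where 85 of the 95 were called. Without the filter 14 genes were called lower. Leaving out 1 library at a time gave 45 to 90 calls, 38 to 73 higher and 7 to 17 lower; the counts were 45 without knockout 2, 47 without knockout 1, 53 without knockout 3, 59 without wildtype 2, 60 without heterozygous 2, 63 without wildtype 1 and 90 without heterozygous 1. The cause of these moves was not tested, except that fits with fewer libraries have fewer residual degrees of freedom. The share of higher calls moved by over 10 percentage points from 75.8% to 87.1% with heterozygous as the only controls and to 88.3% without heterozygous 2. Pseudocounts of 0.1 and 0.5, a minimum of 5 FPKM, a fit without trend, a robust fit, genotype as 3 levels and a covariate for lens or Y-linked RNA left the total between 71 and 99. Of the 95 genes, 62 were called in at least 12 of 24 alternatives and 33 in fewer.

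Side by side, the knockout against wildtype comparison called 28 genes on the TPM scale, 33 with lens RNA as a covariate and 33 with Y-linked RNA as one, and 5 to 53 without 1 library. Knockout against heterozygous called 14 to 40 without 1 library. Heterozygous against wildtype called 19 without the filter and 0 to 3 without 1 library.

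The labels do not say that replicate numbers pair samples. Same-numbered libraries correlated in their deviations from the genotype means at 0.43 and 0.27 between knockout and heterozygous. Between knockout and wildtype the values were 0.09 and -0.02. With 2 libraries in each control genotype, their deviations mirror each other, so the values of each comparison are not independent. Knockout 1 and heterozygous 1 are also the lens-rich libraries, so pairing by number and lens RNA cannot be told apart there. With a replicate block, in which knockout 3 has a number of its own and no longer bears on the estimate, 38 genes were called, 31 higher and 7 lower, with 3 against wildtype and 0 against heterozygous side by side. Under the replicate block Uty was at 0.51, Kdm5d at 0.59 and Xist at -1.88.

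The values that turned sign belonged to 7 genes of lens, muscle or the sex chromosomes, none of them called. With wildtype as the only controls Cryga was at 0.17, Mylpf at 0.051, Uty at 0.36, Kdm5d at 0.39 and Xist at -1.32. Cryaa was at -0.018 with a pseudocount of 0.1, -0.10 on the TPM scale, -1.70 with heterozygous as the only controls, -0.17 with the lens covariate and -0.997 without both lens-rich libraries, where Mylpf was at 0.047. Xist was at -0.16 with the Y-linked covariate and -0.015 without both libraries with Xist. Leaving out 1 library gave -1.01 to 0.060 for Lgsn, -1.01 to 0.17 for Cryga, -0.83 to 0.51 for Uty, -0.90 to 0.59 for Kdm5d, -2.94 to 2.17 for Cryaa and -1.88 to 2.41 for Xist.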
